A study of Homo sapiens with 32 samples.

Results

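CD38, a surface enzyme that breaks down NAD, and 9 enzymes that make, use or convert NAD were followed at the RNA level in the human multiple myeloma line MM.1S under all-trans retinoic acid (ATRA) and carfilzomib (Cfz). The 10 genes were chosen by symbol (CD38, NAMPT, NAPRT, NMNAT1, NMNAT3, NADSYN1, NADK, PARP1, SIRT1 and NNT), each matched 1 row of the deposited table, and they stand among 24249 distinct gene IDs. The table holds RNA-seq values of 8 libraries in 4 groups. ATRA+Cfz cells (1 library) were exposed to Cfz for 1 h and then kept for 12 h in medium with 10 µM ATRA. ATRA cells (3 libraries) had the vehicle DMSO during that first hour, followed by 12 h with 10 µM ATRA. Cfz cells (1 library) had the Cfz pulse followed by 12 h with DMSO, and DMSO cells (3 libraries) had DMSO in both steps. The sources used here give no Cfz dose, and all groups are cultures of the same cell line in RPMI1640 with fetal bovine serum.

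NAD is the coenzyme that carries electrons in metabolism, and it is also consumed as a substrate. Cells rebuild it from nicotinamide through NAMPT and the NMNAT enzymes, from nicotinic acid through NAPRT and NADSYN1, and from tryptophan, while CD38, the PARP enzymes and the sirtuins split it and release nicotinamide. CD38 is abundant on normal and malignant plasma cells, where therapeutic antibodies bind it. ATRA is the ligand of the retinoic acid receptors, and carfilzomib is an irreversible proteasome inhibitor used in myeloma.

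Depth was 14136937 to 17155331 reads per library, recovered from the FPM values (fragments scaled to 1000000 per lane), and the 10 genes had between 70 (NAPRT) and 21013 (PARP1) reads in a library. DMSO 3 stood apart before any comparison: chi-square over degrees of freedom, near 1 for pure sampling noise, was 10.5 and 11.0 when its reads were set against DMSO 1 and DMSO 2. It was 1.81 for DMSO 1 with DMSO 2, and 1.79 to 2.89 within ATRA. The mitochondrially encoded share of reads was 5.72% in ATRA+Cfz, 3.67% to 3.89% in ATRA, 5.43% in Cfz, 5.85% in DMSO 3 and 4.10% to 4.12% in the other DMSO libraries. Its part in the results was not tested. Member results are given without DMSO 3 where their call changed, and results of other single genes are given from all libraries alone. The plasma cell markers SDC1, TNFRSF17, PRDM1, IRF4, XBP1 and POU2AF1 were present in every library. Their summed level was 5351 FPM in ATRA+Cfz, 6071 to 6126 FPM in ATRA, 3194 FPM in Cfz and 3185 to 3580 FPM in DMSO. The marker lists of T and NK (3 of 5 genes analysed), myeloid (3 of 5), stromal (4 of 5) and epithelial cells (2 of 3) summed to at most 2.07, 1.32, 2.55 and 3.47 FPM in a library, and CD3G, CD8A, CD14, COL1A1, COL1A2 and DCN were listed at 0 in at least 1 library. Whether the libraries of a group are separate cultures is not stated, so p-values cover the spread among libraries alone, and that spread may be technical.

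CD38 was the member that moved most. It had 376 FPM in the ATRA+Cfz library, 434, 426 and 433 FPM in the ATRA libraries, 39.0 FPM in the Cfz library, and 64.7, 67.5 and 79.5 FPM in the DMSO libraries. The groups did not overlap: ATRA+Cfz and ATRA were far above every DMSO library, and Cfz was below all 3. CD38 averaged 431 ± 4.53 FPM in ATRA cells and 70.6 ± 7.84 FPM in DMSO cells (SD, n = 3 each), a 6.11-fold ratio of means. On the log2(FPM + 0.5) scale, which is used for every log2 fold change below (plain folds are ratios of mean FPM), the rise with ATRA was 2.61 ± 0.06 (SE; limma with Benjamini-Hochberg adjustment, adjusted p = 9.16e-11). The direction of the ATRA difference held without DMSO 3, at 2.70. The plasma cell marker sum given above was higher with ATRA too, and its part in the CD38 difference was not tested. The sum weighs its genes unequally: over the libraries XBP1 ranged from 800 to 2656 FPM and POU2AF1 from 266 to 325 FPM. It does not show that each marker was higher with ATRA. In RNA from whole cultures, a change in the number of expressing cells and a change in RNA per cell cannot be told apart.

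CD38 was lower than in DMSO cells after the Cfz pulse alone, and higher than in DMSO cells where ATRA followed that pulse. The single Cfz library was 44.7% below the DMSO mean (log2 fold change -0.84 ± 0.09, limma adjusted p = 7.24e-05). ATRA+Cfz stood 9.63-fold above Cfz (3.25 ± 0.11, limma adjusted p = 8.63e-09) and 5.33-fold above DMSO (2.41 ± 0.09, limma adjusted p = 3.25e-09). It lay below all 3 ATRA libraries, at 0.872 of their mean, and this difference did not pass the test (-0.20, 95% interval -0.39 to -0.0021, limma adjusted p = 0.119). Without DMSO 3 the same difference passed, with a limma adjusted p of 0.000408. Cfz and ATRA+Cfz have 1 library each, so these differences have no replicate check, and the fit assumes that both vary like the DMSO and ATRA libraries.

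The ATRA effect on CD38 after Cfz can be set against its effect without Cfz on 2 scales, which gave different signs. On the log2 scale the effect was larger after Cfz by 0.64 ± 0.13 (95% interval 0.37 to 0.92, limma interaction, adjusted p = 0.0292). In FPM, with no test, ATRA+Cfz exceeded Cfz by 337, and ATRA exceeded DMSO by 361, a difference of -23.5. The log2 interaction was no longer called when any 1 ATRA library was left out (0.63 to 0.65, limma adjusted p 0.0738 to 0.0952), and without DMSO 3 it was 0.56 (limma adjusted p = 1.03e-05). Over all 15827 genes tested, the interaction was called for 2.3% (0.992% higher, 1.31% lower), and CD38 was the 1 member of 10 called. With an unadjusted p under 0.05 there were 2 members, CD38 and PARP1. Without DMSO 3 the adjusted p passed for 3 members, CD38, NAMPT and PARP1, and for 1985 of 15836 genes tested.

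**Figure D1:**
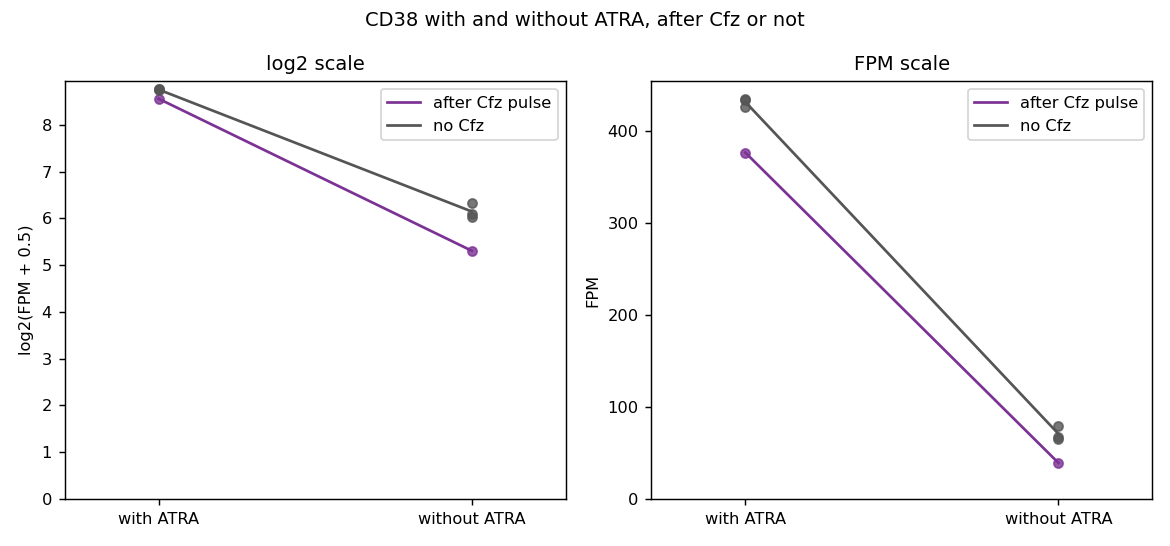
CD38 per library as log2(FPM + 0.5) (left panel) and as FPM (right panel), with ATRA at the left of each panel and without ATRA at the right; points are libraries and lines join group means. After the Cfz pulse (purple) the line spans 3.25 log2 units or 337 FPM, and with no Cfz (grey) it spans 2.61 log2 units or 361 FPM.

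The promoter windows of CD38 and NAMPT are shown because these members had the largest rise and the largest fall with ATRA. RefSeq promoter sequences (GRCh38.p14) matched 9 of the 10 members, with 13 start sites. The 250 bases before the start are printed 5′ to 3′ on the gene's strand, with capitals marking CpG. The CD38 window lies at chr4:15778078-15778327 on the plus strand, and the NAMPT window at chr7:106284984-106285233 on the minus strand. GENCODE release 29 places CD38 (ENSG00000004468) at chr4:15778275-15853230 and NAMPT (ENSG00000105835) at chr7:106248285-106286326, so the CD38 window lies partly and the NAMPT window wholly inside the gene as that annotation draws it.
CD38: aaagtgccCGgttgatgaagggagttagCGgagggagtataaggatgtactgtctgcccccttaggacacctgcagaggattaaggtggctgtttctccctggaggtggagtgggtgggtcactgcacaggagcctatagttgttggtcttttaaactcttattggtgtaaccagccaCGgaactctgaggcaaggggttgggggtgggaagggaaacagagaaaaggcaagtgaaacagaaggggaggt
NAMPT: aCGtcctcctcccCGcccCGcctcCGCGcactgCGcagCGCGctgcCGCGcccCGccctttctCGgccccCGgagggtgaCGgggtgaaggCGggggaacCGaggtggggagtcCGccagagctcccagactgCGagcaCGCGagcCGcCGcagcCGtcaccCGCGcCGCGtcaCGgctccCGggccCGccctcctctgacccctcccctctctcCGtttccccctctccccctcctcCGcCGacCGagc
The windows differ in composition. CD38 has 3 CpG and 52.4% G+C, and 30.1% of the 27305 promoter windows have as few CpG or fewer. NAMPT has 34 CpG and 77.2% G+C, and 94.4% of windows have at most that many. The GC box letters GGGCGG, searched on both strands, occur in at least 1 window of 8 of the 9 members, CD38 being the exception. They occur in 42.3% of all windows. Shares of all windows take 1 window per gene, where a member has 1 to 3, so these units differ. The hexamer AGGTCA, the core letters of nuclear receptor sites, was not found on either strand in any of the 13 member windows, and 12.1% of all windows hold it. Its variant AGTTCA, searched in the same way, was found on the reverse strand in 1 window of NADK, and 8.91% of all windows hold it on either strand. The letters TATAAA also occur in NADK alone among the members, on the reverse strand (11.1% of all windows on either strand), and the NF-kB motif in no member (0.183% of all windows). These letters say nothing about sites outside the windows.

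Among the NAD-making enzymes, RNA of the rate-limiting step from nicotinamide fell with ATRA, and no change was detected in the step that follows it. NAMPT, which makes nicotinamide mononucleotide from nicotinamide, had 229 FPM in ATRA+Cfz, 178, 185 and 189 FPM in ATRA, 314 FPM in Cfz, and 304, 305 and 264 FPM in DMSO. All ATRA libraries were below all DMSO libraries, ATRA+Cfz lay between them, and Cfz was above every DMSO library. It averaged 184 ± 5.59 FPM in ATRA cells and 291 ± 23.1 FPM in DMSO cells (SD, n = 3 each), a fall by 0.66 ± 0.05 on the log2 scale (limma adjusted p = 1.17e-06). ATRA+Cfz was lower than DMSO (-0.34, limma adjusted p = 0.00247) and lower than Cfz (-0.45, limma adjusted p = 0.00307), but higher than ATRA (0.31, limma adjusted p = 0.00816). Cfz against DMSO did not pass (0.11, 95% interval -0.05 to 0.28). The NAMPT interaction was 0.20 (95% interval -0.03 to 0.44, limma adjusted p = 0.347), and without DMSO 3 it was 0.27 and passed (limma adjusted p = 0.00281). NAMPTP1, a processed pseudogene that could share reads with NAMPT, had 13.3, 11.7 and 13.5 FPM in ATRA libraries and 21.0, 20.9 and 18.3 FPM in DMSO libraries. Adding it to NAMPT left the ratio of ATRA to DMSO means at 0.633.

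NMNAT1 and NMNAT3 join nicotinamide mononucleotide to an adenylate to give NAD, in the nucleus and, for NMNAT3, reportedly in mitochondria. NMNAT1 had 14.3 FPM in ATRA+Cfz, 14.3, 15.4 and 14.7 FPM in ATRA, 15.4 FPM in Cfz, and 15.8, 14.4 and 13.9 FPM in DMSO. NMNAT3 had 17.1 FPM in ATRA+Cfz, 15.8, 15.7 and 15.9 FPM in ATRA, 13.8 FPM in Cfz, and 16.1, 15.6 and 14.7 FPM in DMSO. For both genes the ATRA and DMSO libraries overlapped, and no comparison passed the test. The 95% intervals for ATRA against DMSO were -0.16 to 0.19 for NMNAT1 and -0.13 to 0.19 for NMNAT3. With Cfz they were -0.17 to 0.32 for NMNAT1 and -0.38 to 0.06 for NMNAT3. The difference of ATRA+Cfz from Cfz for NMNAT3 was 0.30 (95% interval 0.03 to 0.58, limma adjusted p = 0.0877).

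The enzymes of the nicotinic acid route went opposite ways with ATRA. NAPRT, which adds phosphoribose to nicotinic acid, had 4.95 FPM in ATRA+Cfz, 7.87, 9.10 and 7.90 FPM in ATRA, 7.94 FPM in Cfz, and 13.3, 10.2 and 10.9 FPM in DMSO. The ATRA+Cfz library was the lowest of the 8 and the DMSO libraries were the highest. Against DMSO, NAPRT fell by 1.12 ± 0.17 on the log2 scale in ATRA+Cfz (limma adjusted p = 0.000142), by 0.44 ± 0.12 in ATRA (limma adjusted p = 0.00860) and by 0.50 ± 0.17 in Cfz (limma adjusted p = 0.0486). ATRA+Cfz was also lower than Cfz (-0.63, limma adjusted p = 0.0358) and lower than ATRA (-0.69, limma adjusted p = 0.00882). NAPRT is the member with the fewest reads, and the calls with ATRA, with Cfz and of ATRA+Cfz against Cfz and against ATRA were lost with DESeq2 (adjusted p = 0.0508, 0.231, 0.162 and 0.0581). Among other settings, edgeR did not call NAPRT with Cfz (adjusted p = 0.0629) or in ATRA+Cfz against Cfz (adjusted p = 0.0680). The limma call with Cfz was also lost without DMSO 1 or any 1 ATRA library (adjusted p 0.0603 to 0.110), and the call against Cfz without ATRA 1 or ATRA 3 (adjusted p = 0.0541 and 0.0508). NADSYN1, which turns the acid dinucleotide into NAD, had 61.7 FPM in ATRA+Cfz, 66.0, 66.8 and 64.5 FPM in ATRA, 50.2 FPM in Cfz, and 51.9, 52.8 and 48.6 FPM in DMSO. Every library with ATRA was above every library without it. NADSYN1 rose by 0.36 ± 0.05 with ATRA (limma adjusted p = 4.82e-05) and by 0.27 ± 0.07 with ATRA+Cfz against DMSO (limma adjusted p = 0.00451), and ATRA+Cfz was above Cfz by 0.30 (limma adjusted p = 0.0159), a call that DESeq2 did not make (adjusted p = 0.0882). Cfz against DMSO was -0.02 (95% interval -0.17 to 0.12) and ATRA+Cfz against ATRA was -0.09 (95% interval -0.24 to 0.05), and neither passed.

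**Figure D2:**
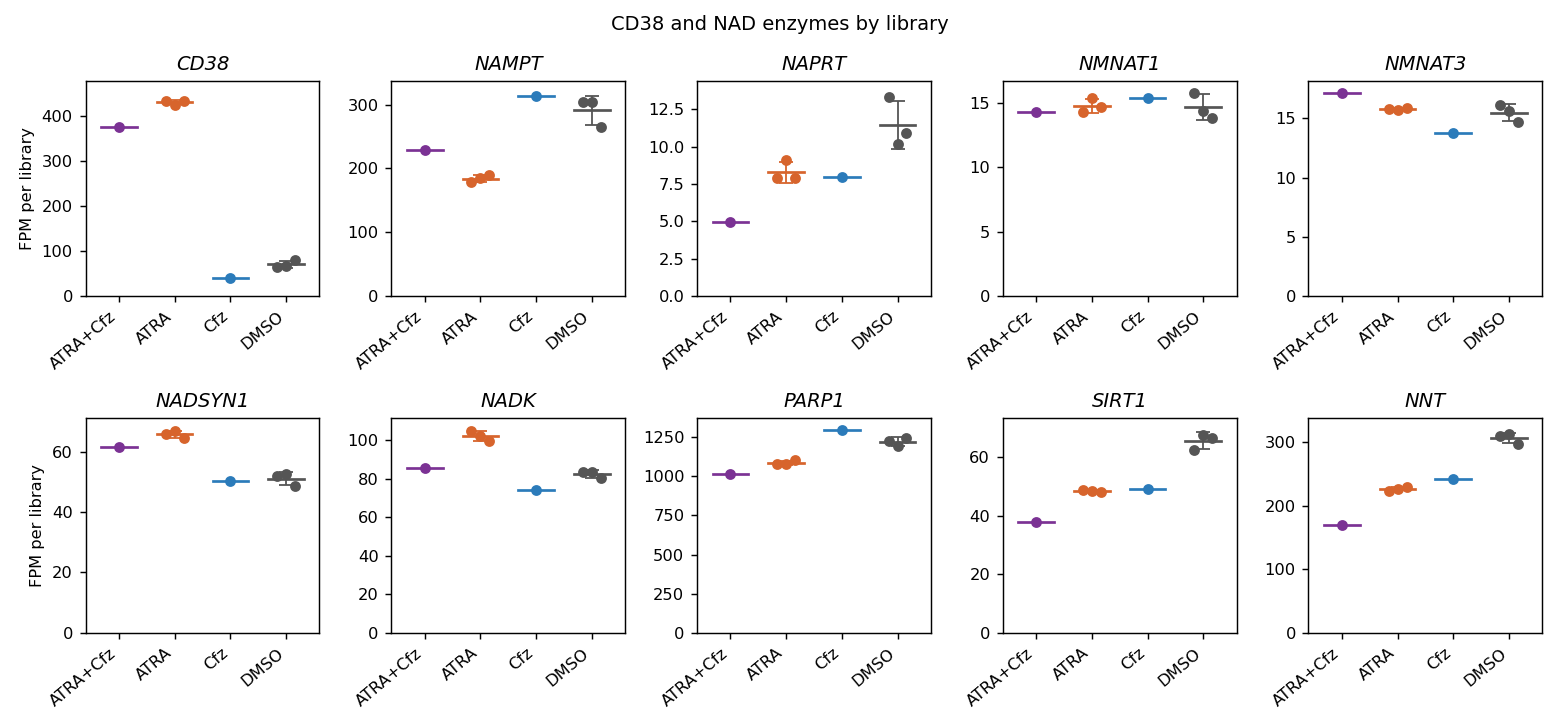
FPM of the 10 members in each library, with 1 panel per gene and each vertical axis starting at 0; points are libraries, horizontal lines are means, and error bars are the SD of the 3 ATRA and 3 DMSO libraries (single libraries have none). CD38, NADSYN1 and NADK are higher in ATRA than in DMSO, NAMPT, NAPRT, PARP1, SIRT1 and NNT are lower, and NMNAT1 and NMNAT3 overlap.

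NADK and NNT both bear on the phosphorylated coenzyme, and they also parted with ATRA. NADK, the cytosolic kinase that makes NADP from NAD, had 85.7 FPM in ATRA+Cfz, 105, 102 and 99.5 FPM in ATRA, 74.4 FPM in Cfz, and 83.3, 83.7 and 80.3 FPM in DMSO. The ATRA libraries were highest, the Cfz library lowest, and ATRA+Cfz was just above the DMSO libraries. NADK rose by 0.31 ± 0.04 with ATRA (limma adjusted p = 5.13e-05). ATRA+Cfz was below ATRA (-0.25, limma adjusted p = 0.00538, lost with DESeq2 at adjusted p = 0.0635), and its difference from DMSO did not pass (0.06, 95% interval -0.07 to 0.18). It was above Cfz (0.20, limma adjusted p = 0.0442), a call that DESeq2 did not make (adjusted p = 0.193) and that limma lost without DMSO 1, DMSO 2 or any 1 ATRA library (adjusted p 0.0553 to 0.0740). Cfz against DMSO was -0.15 (95% interval -0.27 to -0.02, limma adjusted p = 0.0789), and without DMSO 3 it was -0.17 (limma adjusted p = 0.0140).

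NNT, the proton-driven transhydrogenase of the inner mitochondrial membrane, which makes NADPH at the expense of NADH, had 170 FPM in ATRA+Cfz, 224, 227 and 229 FPM in ATRA, 242 FPM in Cfz, and 310, 313 and 297 FPM in DMSO. The DMSO libraries were the highest and the ATRA+Cfz library the lowest, with the single agents between them. NNT fell by 0.85 ± 0.05 against DMSO in ATRA+Cfz (limma adjusted p = 6.86e-08), fell by 0.44 ± 0.03 in ATRA (limma adjusted p = 9.15e-07) and fell by 0.34 ± 0.05 in Cfz (limma adjusted p = 0.000502). ATRA+Cfz was also lower than Cfz (-0.51, limma adjusted p = 6.66e-05) and than ATRA (-0.41, limma adjusted p = 0.000105). The log2 interaction was -0.07 (95% interval -0.22 to 0.08, limma adjusted p = 0.635). NNT-AS1, which overlaps NNT on the opposite strand, had 49.5 ± 2.97 FPM in ATRA cells and 40.9 ± 2.92 FPM in DMSO cells (0.27, limma adjusted p = 0.00397). The sources used here give no strand setting, so reads from a stretch that both genes share could be assigned to either.

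The NAD consumers PARP1 and SIRT1 were both lower with ATRA, SIRT1 by more. PARP1, the main nuclear ADP-ribosyltransferase of DNA damage signalling, had 1013 FPM in ATRA+Cfz, 1079, 1081 and 1103 FPM in ATRA, 1295 FPM in Cfz, and 1225, 1194 and 1247 FPM in DMSO. Both groups with ATRA lay below both groups without it, and Cfz was the highest library. PARP1 fell by 0.17 ± 0.03 with ATRA (limma adjusted p = 0.00148) and by 0.27 ± 0.05 with ATRA+Cfz against DMSO (limma adjusted p = 0.000560), and ATRA+Cfz was below Cfz (-0.35, limma adjusted p = 0.000792). Cfz against DMSO (0.08, 95% interval -0.02 to 0.19) and ATRA+Cfz against ATRA (-0.10, 95% interval -0.21 to 0.0022) did not pass. Both passed without DMSO 3 (0.10, limma adjusted p = 0.00652, and -0.10, limma adjusted p = 0.00261). The PARP1 interaction was -0.19 (limma adjusted p = 0.173), and without DMSO 3 it was -0.20 (limma adjusted p = 0.00137).

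SIRT1, the nuclear NAD-dependent deacetylase, had 38.0 FPM in ATRA+Cfz, 48.8, 48.3 and 48.0 FPM in ATRA, 49.2 FPM in Cfz, and 62.3, 67.7 and 66.7 FPM in DMSO. The DMSO libraries were the highest, the single agents were near each other, and ATRA+Cfz was the lowest. SIRT1 fell against DMSO by 0.78 ± 0.07 in ATRA+Cfz (limma adjusted p = 1.71e-06), by 0.43 ± 0.05 in ATRA (limma adjusted p = 1.25e-05) and by 0.41 ± 0.07 in Cfz (limma adjusted p = 0.00115). It was lower in ATRA+Cfz than in ATRA (-0.35, limma adjusted p = 0.00225) and than in Cfz (-0.37, limma adjusted p = 0.00488), where DESeq2 did not call it (adjusted p = 0.0525). The interaction on the log2 scale was 0.06 (95% interval -0.14 to 0.27, limma adjusted p = 0.773).

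**Figure D3:**
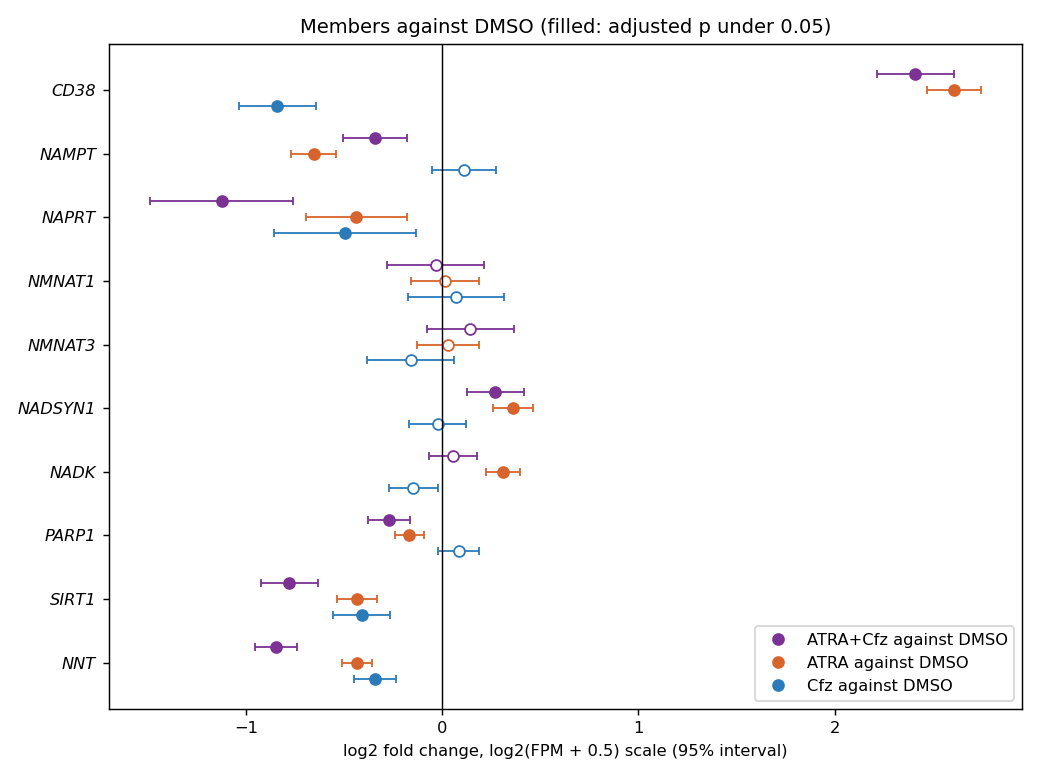
Log2 fold change of each member against DMSO, on the log2(FPM + 0.5) scale, for ATRA+Cfz (purple), ATRA (orange) and Cfz (blue); bars are 95% intervals of the limma fit, and filled points have an adjusted p under 0.05. CD38 lies at 2.41, 2.61 and -0.84, and NAPRT, SIRT1 and NNT lie below 0 in all 3 comparisons.

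Counted over the members, ATRA against DMSO was called for 3 higher (CD38, NADSYN1 and NADK), 5 lower (NAMPT, NAPRT, PARP1, SIRT1 and NNT) and 2 in neither direction. Of all genes tested, 48.7% were called in that comparison, 21.3% higher and 27.4% lower. The same 8 members had ATRA and DMSO libraries that did not overlap, as did 56.6% of all genes (25.5% with ATRA above, 31.1% with ATRA below). Cfz against DMSO gave 0 higher, 4 lower (CD38, NAPRT, SIRT1 and NNT) and 6 not called, against 24.9% of all genes (7.94% higher, 17% lower). No member was called higher with Cfz by limma (0 at an unadjusted p under 0.05), edgeR or DESeq2 over all libraries, and PARP1 was with limma when DMSO 3 was left out. That fit called 6 members and 5442 of 15836 genes for Cfz against DMSO. The share of higher genes among the Cfz calls moved with the scaling, at 31.8% in the FPM fit, 47.8% with median-ratio scaling, 42.2% with edgeR and 53.1% with DESeq2. ATRA+Cfz against DMSO gave 2 higher, 5 lower and 3 not called, against 50.6% of all genes (20% higher, 30.5% lower). These 3 comparisons share the DMSO libraries, and the members' counts were read only against the share of all genes.

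The members called in ATRA+Cfz against Cfz were 3 higher and 5 lower, against 30.4% of all genes (12.8% higher, 17.6% lower). DESeq2 called 4 members in that comparison, and 3118 of all 15827 genes. In ATRA+Cfz against ATRA, 1 member was higher (NAMPT) and 4 were lower (NAPRT, NADK, SIRT1 and NNT). Of all genes, 30.9% were called there (10.6% higher, 20.2% lower). DESeq2 called 3 members and 2886 of 15827 genes. Without DMSO 3, limma called 7 members and 6389 of 15836 genes. The share of higher genes among all calls in that comparison was 34.4% in the FPM fit and 45.3% with edgeR, and among interaction calls it was 43.1% in the FPM fit, 22.4% with median-ratio scaling and 22.6% with DESeq2. The members' median log2 fold change was -0.15 with ATRA+Cfz, -0.08 with ATRA and -0.15 with Cfz against DMSO, where the median over all genes tested was -0.05, -0.03 and -0.08.

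Levels between the genes were compared per kilobase of merged exons. CD38 had 54.9 FPM per kb in ATRA+Cfz, 62.9 in ATRA, 5.69 in Cfz and 10.3 in DMSO. This placed it at rank 2 of the 10 members in ATRA+Cfz and ATRA, and at rank 6 in Cfz and DMSO. PARP1 was at rank 1 in all 4 groups, with 141 FPM per kb in ATRA+Cfz, 152 in ATRA, 181 in Cfz and 170 in DMSO. NMNAT3 was at rank 10 in all 4 groups, with at most 1.32 FPM per kb, but by median transcript length NAPRT held rank 10 in ATRA+Cfz, ATRA and Cfz. By median transcript length, CD38 was at rank 3 in ATRA+Cfz and ATRA and again at rank 6 in Cfz and DMSO. Other members moved more between the lengths, such as NADSYN1, at rank 9 in DMSO by merged exons and at rank 5 by median transcript. The transcripts that MM.1S uses were not determined, so the order below PARP1 depends on the length chosen.

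Beyond the members, 52 further genes of NAD metabolism were listed by role, 49 had a row and 41 passed the level filter. With ATRA, 9 of the 41 were higher, 9 lower and 23 not called, where 21.3% of all genes were higher and 27.4% lower. With Cfz, 8 were higher, 6 lower and 27 not called, where 7.94% of all genes were higher and 17% lower. ATRA+Cfz against DMSO gave 11 higher and 11 lower, where 20% of all genes were higher and 30.5% lower. Nothing particular to the list was read from these counts. The limma adjusted p of the interaction was 0.0575 or above for all 41 (4 at an unadjusted p under 0.05). Their median log2 fold change was 0.06 with ATRA and -0.07 with Cfz.

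BST1, the paralog of CD38 with the same kind of activity, was near the detection floor, with 0.0703 FPM in ATRA+Cfz, 0 to 0.127 FPM in ATRA, 0.132 FPM in Cfz and 0.176 to 0.201 FPM in DMSO, and was not tested. A floor of 3 reads equals 0.175 to 0.212 FPM. SARM1, an NAD glycohydrolase known from axon degeneration, had 9.11 FPM in ATRA+Cfz, 12.2 ± 0.885 FPM in ATRA, 10.1 FPM in Cfz and 11.4 ± 1.44 FPM in DMSO, and was called in no comparison.

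Genes listed for routes to NAD did not all move one way with ATRA: NAMPT and NAPRT fell, while NMRK1 and 3 genes of the tryptophan route rose. Whether the tryptophan route reaches NAD in these cells was not tested. NMRK1, the kinase that makes nicotinamide mononucleotide from nicotinamide riboside, had 69.7 FPM in ATRA+Cfz, 65.7 ± 2.06 FPM in ATRA, 46.1 FPM in Cfz and 41.2 ± 2.20 FPM in DMSO, and rose by 0.67 ± 0.05 with ATRA (limma adjusted p = 7.63e-07). Of the 5 tested genes of the tryptophan route, 3 were called higher with ATRA and 0 lower by limma, where 21.3% of all genes were higher and 27.4% lower, and no test was made on the 5 genes together. TDO2, which opens the tryptophan ring, had 29.4 FPM in ATRA+Cfz, 20.7 ± 0.814 FPM in ATRA, 12.3 FPM in Cfz and 7.85 ± 0.572 FPM in DMSO. TDO2 rose by 1.35 ± 0.08 with ATRA (limma adjusted p = 1.11e-07), by 0.62 ± 0.11 with Cfz (limma adjusted p = 0.00254) and by 1.84 ± 0.11 with ATRA+Cfz (limma adjusted p = 1.35e-07). KMO, the kynurenine hydroxylase, rose by 0.62 ± 0.12 with ATRA (limma adjusted p = 0.000874), and AFMID, the formamidase between them, by 0.24 ± 0.09 (limma adjusted p = 0.0423). With Cfz, KMO rose by 0.49 ± 0.16 (limma adjusted p = 0.0480) and AFMID fell by 0.63 ± 0.12 (limma adjusted p = 0.00355). AFMID had 11.2 FPM in ATRA+Cfz, 16.6 ± 0.966 FPM in ATRA, 8.86 FPM in Cfz and 14.0 ± 1.15 FPM in DMSO. QPRT, which completes the route, was at 0.268 to 1.60 FPM in all libraries and its ATRA difference did not pass (0.64 ± 0.28, limma adjusted p = 0.0847). Another tested gene of the route, KYNU, was not called either. HAAO (0 to 0.199 FPM), IDO1 (0 to 0.414), IDO2 (0 to 0.209) and ACMSD (0 to 0.402) were listed for this route too. They did not pass the level filter and were not tested.

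In the group that makes, repairs or removes phosphorylated or damaged coenzyme, NADK2 and HDDC3 moved apart. NADK2, the mitochondrial NAD kinase, had 39.4 FPM in ATRA+Cfz, 45.0 ± 1.24 FPM in ATRA, 40.1 FPM in Cfz and 60.7 ± 3.12 FPM in DMSO, so it fell with ATRA by 0.43 ± 0.05 (limma adjusted p = 2.94e-05), where NADK, its cytosolic counterpart, rose. It fell with Cfz by 0.59 ± 0.07 (limma adjusted p = 0.000195). HDDC3, an NADPH phosphatase, rose with ATRA by 0.40 ± 0.07 (limma adjusted p = 0.000519), and NUDT12, a hydrolase of NAD(P)H, fell by 0.46 ± 0.11 (limma adjusted p = 0.00524).

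PARP1 was 1 of 7 ADP-ribosylation genes that were lower with ATRA. Of the other 14 tested, 2 were higher, 6 lower and 6 not called, where 48.7% of all genes were called (21.3% higher, 27.4% lower), and the group was not tested against that share. PARP8 fell by 0.96 ± 0.06 (limma adjusted p = 2.05e-07), with 18.8 ± 0.438 FPM in ATRA cells and 37.2 ± 2.28 FPM in DMSO cells (SD, n = 3 each). PARP2, the closest relative of PARP1 in DNA damage signalling, fell by 0.41 ± 0.09 (limma adjusted p = 0.00321). PARP14, an interferon-linked mono-ADP-ribosyltransferase, went the other way, with 160 FPM in ATRA+Cfz, 97.5, 95.3 and 97.6 FPM in ATRA, 112 FPM in Cfz, and 70.0, 68.7 and 60.6 FPM in DMSO. It rose by 0.54 with ATRA, 0.76 with Cfz and 1.26 with ATRA+Cfz against DMSO (limma adjusted p = 5.60e-06, 4.85e-05 and 9.55e-08). TNKS, a tankyrase, rose by 0.26 ± 0.04 with ATRA (limma adjusted p = 0.000132). The 5 other sirtuins tested had limma adjusted p of 0.0723 to 0.980 with ATRA, and whether SIRT1 differed from them was not tested.

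On the cell surface, CD38 works beside ENPP1 and NT5E, which carry its product on to adenosine. ENPP1 had 23.9 FPM in ATRA+Cfz, 25.8 ± 0.890 FPM in ATRA, 11.4 FPM in Cfz and 15.6 ± 1.47 FPM in DMSO. Like CD38 it was above DMSO in both groups with ATRA and below it with Cfz, by 0.71 ± 0.08 in ATRA (limma adjusted p = 1.51e-05) and -0.43 ± 0.11 in Cfz (limma adjusted p = 0.0141). NT5E, which makes adenosine, had 8.00 FPM in ATRA+Cfz, 12.7 ± 0.585 FPM in ATRA, 9.38 FPM in Cfz and 14.6 ± 1.34 FPM in DMSO. It was not called with ATRA (-0.19 ± 0.09, limma adjusted p = 0.113) and fell by 0.60 ± 0.13 with Cfz (limma adjusted p = 0.00609). PECAM1, described as a binding partner of CD38, had 2.12 FPM in ATRA+Cfz, 1.92 ± 0.247 FPM in ATRA, 6.82 FPM in Cfz and 7.68 ± 1.25 FPM in DMSO, and fell by 1.75 ± 0.15 with ATRA (limma adjusted p = 2.36e-06). CD38 and its described partner thus went opposite ways with ATRA.

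**Figure D4:**
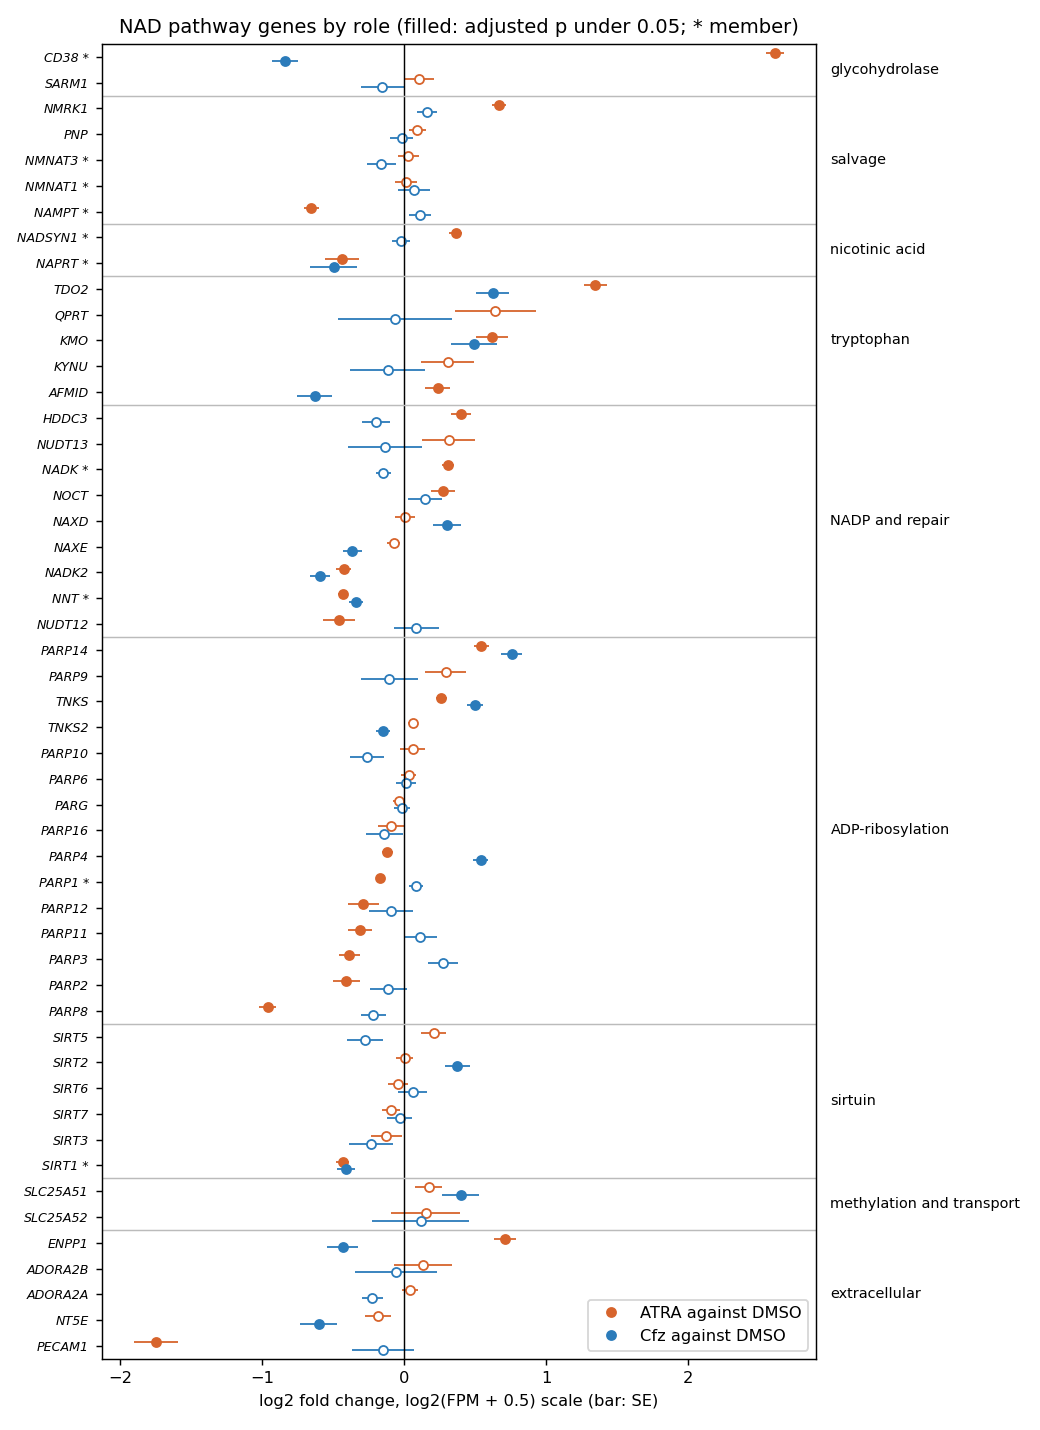
Log2 fold change with ATRA (orange) and Cfz (blue) against DMSO for the tested members (starred) and other genes of NAD metabolism, grouped by role from top to bottom; bars are SE and filled points have an adjusted p under 0.05. CD38 at 2.61 is the furthest right and PECAM1 at -1.75 the furthest left.

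The genes most like CD38 across the 8 libraries were sought among 9696 named genes that reached 10 FPM in any group, by the root mean square difference of log2 profiles, each less its own DMSO mean. SELENOP, a secreted selenium carrier, was closest, at 0.138 log2 units, followed by FBXO32 (0.232), CTSZ (0.251), RAP1GAP2 (0.277) and TFAP2C (0.292). SELENOP had 86.0 FPM in ATRA+Cfz, a mean of 81.0 FPM in ATRA, 9.25 FPM in Cfz and a mean of 14.4 FPM in DMSO. SELENOP, FBXO32 and RAP1GAP2 were also among the 5 closest by group means. By Pearson's r over the same libraries, which ignores the size of the change, the closest were CCDC117, LARS1, ARCN1, NOTCH2NLC and NUAK2. The 8 libraries hold 2 large groups split by ATRA, which these likenesses share. RAP1GAP2 (mean of 2.02 FPM in DMSO, 0.984 FPM in Cfz), TFAP2C (7.97 and 7.67 FPM) and NUAK2 (7.14 and 5.12 FPM) reached 10 FPM only with ATRA. The level filter thus let these genes in through the rise on which they were ranked, and their likeness to CD38 was not tested.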

How the data were processed

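The authors deposited FPM values (fragments scaled to a total of 1000000, a CPM unit) per gene for 4 lanes of each of 8 libraries. Per the submitters' processing notes, the reads went through kallisto 0.46.2 after fastp 0.20.0, and DESeq2 is named with no version. The build, annotation and strand setting were not given in the sources used here. Whole reads were recovered for 100% of values within 0.01 read. Lanes were averaged per library, since no member's lanes differed beyond sampling noise (lowest adjusted chi-square p = 0.306). Libraries were grouped by the treatment in the labels.

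From the deposited FPM values, log2(FPM + 0.5) was computed and fitted with limma 3.58.1 (R 4.3.3, intensity trend) over all 8 libraries and 15827 genes whose mean of 4 group means was at least 0.5 FPM, with 4 residual and 7.21 prior degrees of freedom. All 10 members passed this filter. The threshold for a call was a p under 0.05 after Benjamini-Hochberg adjustment. Fold changes on this scale understate the change of low genes. On the recovered reads, edgeR 4.0.16 (quasi-likelihood, TMM) called 7748 genes and DESeq2 1.42.0 called 5869 for ATRA against DMSO, where limma called 7704. Other alternatives were the pseudocount, the filter, median-ratio scaling, robust estimation, single lanes, a replicate block and leaving out 1 DMSO or ATRA library at a time. The Cfz and ATRA+Cfz libraries were never left out. Floors and intervals cover counting error or library spread only.

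Symbols came from the deposited table, then GENCODE release 29. The members and the lists of other genes were chosen with earlier results of these data known. Named besides the members were up to 3 called genes per role with the smallest p with ATRA. BST1, SARM1, QPRT, NADK2, PARP2, ENPP1, NT5E and PECAM1 were named in any case. NMNAT2, also to be named in any case, was not analysed here. The remaining genes of the tryptophan route were named as well. Lengths and overlaps came from GENCODE release 29, promoters from RefSeq.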

Additional observations from a re-analysis of the deposited data

Results flagged for a closer look

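The ATRA effect on CD38 differed between cells with and without the Cfz pulse. After Cfz the log2 effect of ATRA was 3.25, and without Cfz it was 2.61, a difference of 0.64 ± 0.13 (limma interaction over all genes, adjusted p = 0.0292). The test of the difference itself passed, with 1 library in each of the Cfz groups, and it no longer passed when any 1 ATRA library was left out (limma adjusted p 0.0738 to 0.0952). In FPM, with no test, the difference of the same 2 effects was -23.5, so its sign rests on the scale.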

How the results depend on the processing

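The 60 member results were recomputed under 21 settings in all, with 18 to 20 for any 1 result, giving 1101 values. Of these, 1025 stayed on their side of the threshold, 69 lost the call, 6 gained it and 1 called result changed sign. That 1 was the CD38 interaction on the FPM scale, added after seeing the data (-23.5 FPM). Results that were not called could change sign and still count among the 1025, such as NMNAT1 with ATRA (0.01, and -0.03 without DMSO 3). In single lanes the CD38 interaction was not called in lanes 2 to 4 (0.61, 0.63 and 0.64, limma adjusted p 0.157, 0.188 and 0.185), and over the fits that leave out 1 library each it was 0.56 to 0.70. Members called for the interaction were 0 in lanes 2 to 4 and 0 to 3 when 1 library was left out; genes called were 364, against 2, 8 and 35 without ATRA 1, 2 and 3, 240 and 164 without DMSO 1 and 2, and 1985 without DMSO 3. CD38 in ATRA+Cfz against ATRA was -0.21 to -0.19 with 1 library left out, and was called only without DMSO 3 (-0.20) among those. For ATRA+Cfz against Cfz, 4 members were called with DESeq2 and 5, 4, 4 and 4 in lanes 1 to 4. For ATRA+Cfz against ATRA the counts were 3 with DESeq2 and 1, 2, 3 and 3 in lanes 1 to 4, and for Cfz against DMSO 2 in lanes 1 and 4. The genes called with DESeq2 were 2013 for Cfz against DMSO, 3118 for ATRA+Cfz against Cfz and 2886 for ATRA+Cfz against ATRA, and in single lanes they were 1363 to 1421 for Cfz against DMSO, 2224 to 2304 and 2119 to 2246 for those pairs, and 4818 to 4907 for ATRA against DMSO. Among the calls lost in single lanes were NAPRT with ATRA in all 4, NADSYN1 in ATRA+Cfz against DMSO in lanes 1 to 3, NAMPT in ATRA+Cfz against ATRA in lanes 1, 2 and 4, and SIRT1 with Cfz in lanes 1 and 4. The causes were not tested; a lane holds fewer reads. The replicate block called 8 members and 7661 genes for ATRA against DMSO, and CD38 stayed at 2.61. It changed no member's call. Deviations of same-numbered DMSO and ATRA libraries were not correlated (r -0.006 to 0.006 over genes), nor were those of differently numbered ones (-0.011 to 0.013). This showed no shared signal, but it cannot tell whether same-numbered libraries were set up together. With 1 library left out, NAPRT was not called with Cfz in 4 of 6 fits, NAPRT in ATRA+Cfz against Cfz in 2 and NADK in ATRA+Cfz against Cfz in 5. Depth limits NAPRT, with 70 reads in ATRA+Cfz, and BST1, which lies about at the floor.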

Other observations

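Outside the named genes, a mitochondrial NAD carrier and an NAD(P)H repair enzyme stood out after their values were seen. SLC25A51, the mitochondrial NAD carrier, had 55.8 FPM in ATRA+Cfz, 38.7 ± 2.75 FPM in ATRA, 45.3 FPM in Cfz and 34.5 ± 5.03 FPM in DMSO, and was higher in ATRA+Cfz than in DMSO by 0.70 ± 0.13 (limma adjusted p = 0.000964). SLC25A52, a near copy of it, was at 0.189 to 0.923 FPM, so reads could be split between them. NAXE, which takes part in the repair of hydrated NADH and NADPH, had 31.0 FPM in ATRA+Cfz, 45.1, 45.5 and 46.6 FPM in ATRA, 37.3 FPM in Cfz, and 49.0, 48.5 and 47.0 FPM in DMSO, and fell by 0.63 ± 0.06 in ATRA+Cfz against DMSO (limma adjusted p = 8.56e-06). NAXD, listed for the same role, went the other way. It rose by 0.28 ± 0.10 in ATRA+Cfz (limma adjusted p = 0.0314) and by 0.30 ± 0.10 in Cfz (limma adjusted p = 0.0458) against DMSO. SIRT2, the mainly cytosolic sirtuin, rose by 0.37 ± 0.09 with Cfz (limma adjusted p = 0.00944), where SIRT1 fell by 0.41. These genes were chosen from the pathway list for their values.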
